A study of Homo sapiens with 4 samples.

Results

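Interferon-stimulated effector genes are the genes that cells switch on when they sense interferon or viral nucleic acid, and 49 of them were followed in SCC13 cells carrying an shRNA against CELF2. The members were found in the deposited count table by their gene symbols, 48 of them directly and OAS1 by its gene identifier (ENSG00000089127, which the table lists as AC004551.1), so they make up 49 of the 60617 genes of the table. All 49 are protein coding in GENCODE v29. SCC13 is an established line of human skin squamous carcinoma cells. CELF2 binds RNA and acts in splicing and mRNA stability. PolyA RNA was sequenced from 2 CELF2 knockdown libraries, made from cells that received the CELF2 shRNA by lentivirus, and from 2 control libraries, made from cells that received a scrambled shRNA by lentivirus. Both groups are labelled wild type, were grown in the same medium and carry a lentivirus, and nothing in the labels says whether the 2 knockdown libraries share a shRNA sequence or whether replicates came from separate cultures, so the spread behind the p-values is that of these 4 libraries and may be technical.

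The libraries held 19928788 and 23177056 counts in the knockdown and 27898889 and 17649090 counts in the controls. CELF2 itself had 0 and 0 counts in the knockdown and 1 and 0 in the controls, so the counts do not check the knockdown. The epithelial label held: the 8 keratinocyte markers, among them KRT5 and KRT14, summed to 25281 and 17533 CPM (counts scaled to a common library size) in the knockdown and to 11721 and 18253 CPM in the controls. Over the 10 immune cell markers the sums were 21.3 and 9.98 CPM in the knockdown against 5.04 and 5.35 CPM in the controls, carried by CD14 and HLA-DRA, while 6 of the 10, among them PTPRC and CD3E, had 0 counts in all 4 libraries. The 4 endothelial markers summed to 1.83 and 1.90 CPM against 0.572 and 0.178 CPM, the 6 fibroblast markers to 37.6 and 20.7 CPM against 13.1 and 16.1 CPM (4 of the 6 at 0 counts and COL1A1 carrying the sum), and the 4 melanocyte markers to 3.75 and 3.87 CPM against 2.47 and 2.14 CPM. The keratinocyte sums overlapped between the groups, whereas the other 4 sums were higher in both knockdown libraries than in both controls, and their part in the results below was not tested.

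As background, type I and type III interferons bind receptors that activate the kinases JAK1 and TYK2, and these phosphorylate transcription factors, STAT2 among them. STAT2 acts with IRF9 in a complex that binds the interferon-stimulated response element in promoters and starts transcription of their target genes. Their products block viral entry, translation, replication and budding, and some of them feed back on the pathway. Keratinocytes are the barrier cells of the skin and can run this programme at a low level without infection.

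Nearly all effector genes had higher fitted values in the knockdown, by a modest amount, and few of them passed the test on their own. The median log2 fold change of the 49 was 0.79, against 0.00 (-0.0037) over all 15171 tested genes, and 48 of the 49 lay above 0, as did 49.6% of all tested genes. Every one of the 49 passed the filter on low counts. At an adjusted p below 0.05 over all tested genes (edgeR quasi-likelihood test, Benjamini-Hochberg adjustment), 4 members rose (OAS1, MX1, IFI6 and IFIT1), 0 fell and 45 did not pass, where 0.606% of all tested genes rose and 0.877% changed in either direction. At an unadjusted p below 0.05, 32 members were higher and 0 lower, against 12.1% of all tested genes that were higher. Both knockdown libraries lay above both control libraries in 39 of the 49 members, against 27.1% of all tested genes, and 10 overlapped. The calls sit on the edge of the threshold: the edgeR adjusted p was 0.0483 for all 4. With limma-voom the adjusted p of all 4 was 0.0560, the smallest of the whole table, where 0 genes passed. A 0 with limma-voom is therefore no result about any group of genes. DESeq2 called 17 of the 49, and 1354 of the 25916 genes with counts, the only background given for its calls below. Those 25916 genes include genes that failed the filter on low counts, which all 49 members passed. The share is therefore not a matched background and may be too low, and the DESeq2 counts below were not set against a matched one. The calls also depended on which library was left out, for these genes as for the whole table. Log2 fold changes of the 4 ran from 1.48 to 1.88 without control library 1 and from 1.17 to 1.64 without knockdown library 2. The median of the 49 was 0.61 without control library 1 and 0.64 without knockdown library 2.

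**Figure D1:**
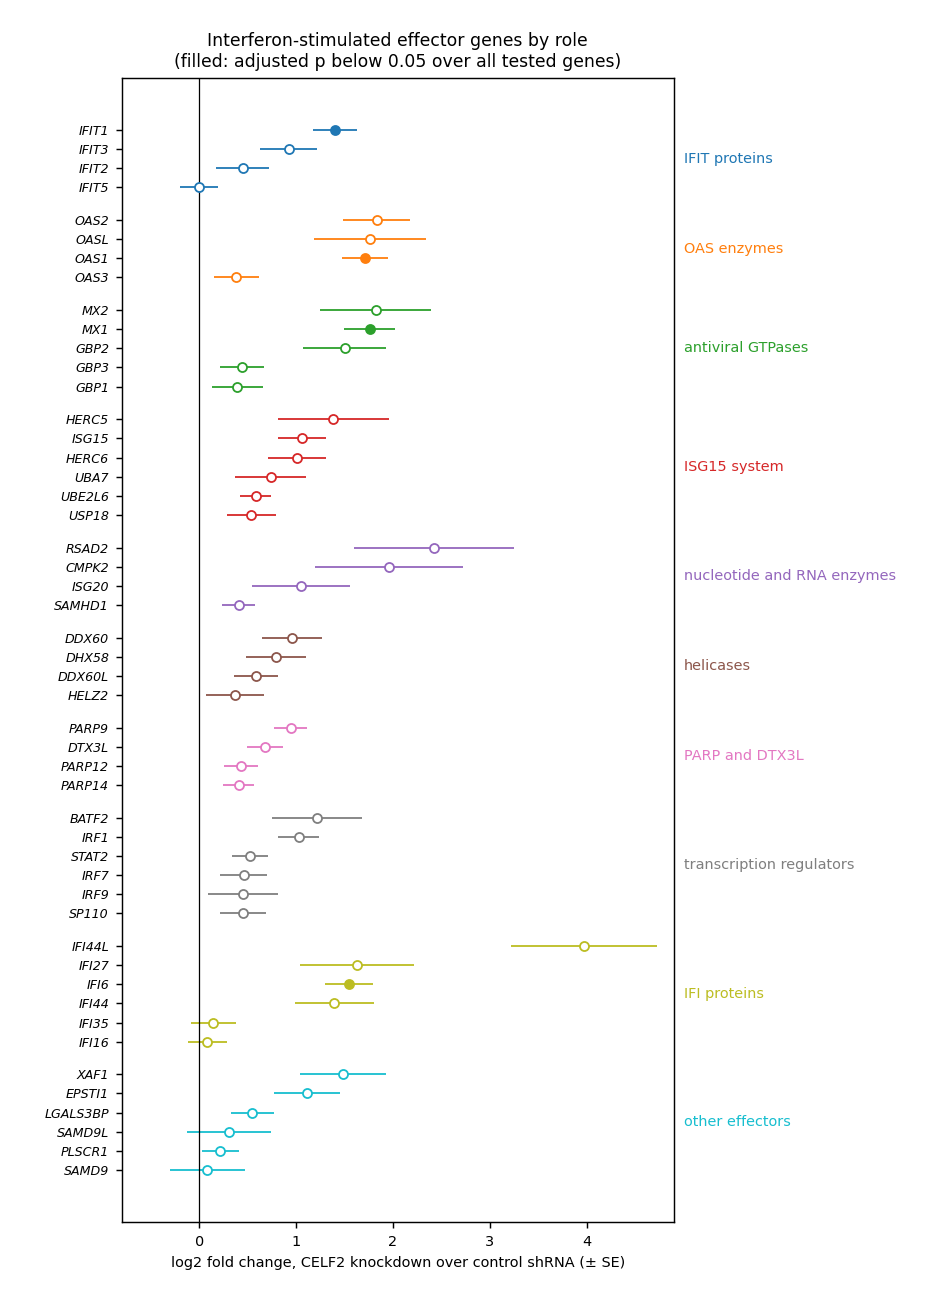
Log2 fold change of each of the 49 genes, CELF2 knockdown over control shRNA (n = 2 libraries each), with the standard error of the fit, grouped by role. Filled points are the 4 genes past the threshold (OAS1, MX1, IFI6 and IFIT1); IFIT5 sits at -0.01 and IFI44L farthest to the right at 3.97.

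Many of these genes carry the letters of the interferon-stimulated response element close to where transcription starts. The core of the element, GAAANNGAAA, and the core of the gamma-activated sequence, TTCNNNGAA, were searched on both strands in RefSeq promoter windows (GRCh38.p14) that run from 250 bases before to 50 bases after a start. Windows were found for 40 members, some with several starts. The first core was in at least 1 window of 25 of these 40 genes (62.5%), against 4.38% of all 27305 genes of the table, and the second in 12 of the 40, against 9.38%. The stretches below are 30 bases each, read 5′ to 3′ on the strand of the gene. They show the upstream match nearest to the start in genes that differ in log2 fold change, with the matches in capitals.
IFIT1, chr10:89392503-89392532, plus strand: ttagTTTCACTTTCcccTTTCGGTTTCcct
IFIT5, chr10:89414538-89414567, plus strand: cttacgtttagTTTCGATTTCttaagtttc
ISG15, chr1:1013377-1013406, plus strand: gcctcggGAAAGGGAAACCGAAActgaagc
IFI6, chr1:27672266-27672295, minus strand: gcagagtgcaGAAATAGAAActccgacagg
IFI27, chr14:94110624-94110653, plus strand: gcagTTTCGGTTTCctgGAAAATGAAAcct
HERC5, chr4:88457035-88457064, plus strand: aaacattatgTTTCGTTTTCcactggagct
RSAD2, chr2:6877622-6877651, plus strand: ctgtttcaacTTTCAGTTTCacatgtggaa
OAS3, chr12:112938444-112938473, plus strand: gttcggagagccgggcggGAAAACGAAAcc
The stretch of IFIT1 ends 91 bases before its start, and that of IFIT5 1 base before it. The stretch of RSAD2 lies before the more downstream of its 2 listed starts.

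Members with and without a match overlapped in their log2 fold changes. The 25 genes with the response element core had a median log2 fold change of 0.94, with a range of -0.01 to 3.97, and the 15 genes without it had a median of 0.53, with a range of 0.09 to 1.96. IFIT5 held 3 matches in its window and had a log2 fold change of -0.01, whereas the window of OAS1, which rose, held 0. XAF1 and CMPK2 had 0 matches in 2 and 3 windows and log2 fold changes of 1.48 and 1.96. A window without these exact letters says nothing on sites outside it, or on variants of the element with other letters or spacing inside it.

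The transcription regulators of the pathway had higher values in all 4 comparisons of a knockdown with a control library, but 0 of the 6 passed over all genes with edgeR. At an unadjusted p below 0.05, 3 were higher, against 12.1% of all tested genes, and DESeq2 called 1 (IRF1). All 6 (STAT2, IRF1, IRF7, IRF9, BATF2 and SP110) had both knockdown libraries above both controls, against 27.1% of all tested genes. Their median log2 fold change was 0.49. IRF1, a factor that binds the same element and is induced by interferon gamma, had 28.6 and 24.4 CPM in the knockdown libraries, against 12.6 and 13.4 CPM in the control libraries. The libraries of each group lay close together and far from the other group, with means of 26.5 ± 2.96 CPM and 12.98 ± 0.553 CPM (SD over 2 libraries). The log2 fold change was 1.03 ± 0.21 (SE; edgeR adjusted p = 0.0616). STAT2, a subunit of the interferon-activated complex, had 111 and 86.6 CPM in the knockdown, against 67.6 and 69.6 CPM in the controls. IRF9, the DNA-binding subunit, was poorly counted, with 3.41 and 3.28 CPM against 2.40 and 2.50 CPM. Its replicates lay close together in both groups, yet the fitted log2 fold change of 0.45 ± 0.36 had the largest p of the 6. BATF2, a basic leucine zipper factor, had a log2 fold change of 1.22 and SP110, a nuclear body protein, of 0.45. IRF7, which amplifies the induction of interferon genes, had 0.46. The counts of IRF1, IRF9 and SP110 are uncertain, because their exons share positions with other genes.

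The upstream genes showed no call. Of 14 tested interferon receptors, JAK-STAT genes and inhibitors, out of 15 listed, 0 passed over all genes with edgeR or DESeq2. With edgeR 3 were higher and 1 lower at an unadjusted p below 0.05, against 12.1% higher and 9.97% lower of all tested genes. The median log2 fold change of the 14 was 0.17. TYK2, the kinase bound to the type I receptor, had 64.7 and 55.6 CPM in the knockdown and 87.1 and 98.0 CPM in the controls, with a log2 fold change of -0.62 ± 0.17 and the smallest p of the list (edgeR adjusted p = 0.101). IFNLR1, the receptor chain for type III interferon, had the next smallest p, with 20.3 and 21.9 CPM against 14.4 and 14.4 CPM. Interferons themselves were hardly counted: of 10 ligand genes 5 had 0 counts in all libraries and 1 (IFNE) passed the filter, at 15 and 16 counts in the knockdown and 18 and 13 in the controls. IFNL1 had 2 and 7 counts in the knockdown and 0 and 0 in the controls, and IFNB1 had 2 and 1 against 0 and 2. A floor of 3 counts is 0.148 and 0.126 CPM in the knockdown libraries and 0.107 and 0.178 CPM in the controls, so smaller differences in interferon mRNA were not detectable at this depth, and this floor covers counting error only.

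The IFIT proteins, which bind foreign RNA and block its translation, differed among themselves although their genes lie side by side. Of the 4 genes, 1 rose in the edgeR test (IFIT1) and 3 did not pass, of which DESeq2 also called IFIT3. IFIT1, which recognizes RNA with a viral type of cap, had 45.5 and 60.6 CPM in the knockdown libraries, against 22.5 and 17.7 CPM in the control libraries. The groups did not overlap, with a log2 fold change of 1.40 ± 0.23 (SE). IFIT3, a partner that stabilizes IFIT1, had 24.1 and 43.7 CPM in the knockdown, against 18.3 and 17.4 CPM in the controls. Its knockdown libraries differed more from each other than knockdown library 1 did from the controls (log2 fold change 0.92 ± 0.29, edgeR adjusted p = 0.128). IFIT2, with 21.3 and 34.996 CPM against 18.8 and 22.5 CPM, overlapped between groups, and its exons share positions with LIPA on the opposite strand. IFIT5 stood level in all 4 libraries, at 22.4 and 21.4 CPM in the knockdown and 22.5 and 21.4 CPM in the controls, with a log2 fold change of -0.01 ± 0.19.

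The OAS enzymes detect double-stranded RNA and make oligoadenylates that activate RNase L, and among the 3 active synthases OAS1 and OAS2 had larger fitted log2 fold changes than OAS3, a difference that was not tested. Of the 4 genes 1 rose in the edgeR test (OAS1) and 3 did not pass, of which DESeq2 also called OAS2; the median log2 fold change was 1.74. OAS1 had 32.8 and 36.0 CPM in the knockdown, against 8.83 and 12.3 CPM in the controls, a log2 fold change of 1.71 ± 0.24 (SE). The antisense gene that overlaps OAS1 (AC004551.2 in the table, ENSG00000257452) had 0 counts in every library. OAS2 had 22.1 and 45.4 CPM in the knockdown, against 10.3 and 8.67 CPM in the controls, and missed the threshold (log2 fold change 1.83 ± 0.35, edgeR adjusted p = 0.0555). Without knockdown library 2 the log2 fold change of OAS2 was 1.22. In OAS3, the longest of the synthases, the groups overlapped at 73.0 and 102 CPM against 76.7 and 57.1 CPM. OASL, which lacks the synthase activity and enhances sensing by RIG-I, had 16.4 and 52.6 CPM in the knockdown, against 6.22 and 14.3 CPM in the controls. Knockdown library 1 thus stood just above control library 2, and the fitted 1.76 had a standard error of 0.57.

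Among the antiviral GTPases, MX1 rose in the edgeR test and the other 4 did not pass, of which DESeq2 also called MX2 and GBP2. MX1, which traps the nucleocapsids of influenza and other viruses, had 20.0 and 27.8 CPM in the knockdown, against 7.62 and 6.48 CPM in the controls, a log2 fold change of 1.76 ± 0.26 (SE). A gene on the opposite strand shares exon positions with MX1, so its counts are uncertain. MX2, its nuclear relative that restricts HIV, was scarcer and more scattered, with 3.31 and 7.50 CPM in the knockdown and 2.15 and 0.832 CPM in the controls. The guanylate-binding proteins attack the vacuoles of intracellular pathogens and respond mainly to interferon gamma. GBP2 had 23.9 and 10.9 CPM in the knockdown, against 7.62 and 4.57 CPM in the controls, so that here knockdown library 1 was the higher one (log2 fold change 1.501 ± 0.43, edgeR adjusted p = 0.102). GBP1, with 19.6 and 13.8 CPM against 11.8 and 13.7 CPM, and GBP3, with 15.6 and 17.6 CPM against 11.7 and 12.8 CPM, had log2 fold changes of 0.39 and 0.44.

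The ISG15 system, a ubiquitin-like modifier with its own conjugating enzymes, had higher fitted values in all 6 genes grouped here. Their log2 fold changes ran from 0.54 to 1.39. Of these 6 genes 0 passed over all genes with edgeR, and DESeq2 called 2 (ISG15 and HERC6). Higher at an unadjusted p below 0.05 were 4, against 12.1% of all tested genes. ISG15, the modifier, had 67.02 and 106 CPM in the knockdown, against 37.0 and 45.9 CPM in the controls (log2 fold change 1.06 ± 0.25, edgeR adjusted p = 0.0745). UBE2L6, the conjugating enzyme, was the steadiest, with 115 and 106 CPM against 73.9 and 73.4 CPM, and a log2 fold change of 0.58 ± 0.16. UBA7, the activating enzyme, overlapped between groups, at 31.2 and 15.1 CPM in the knockdown and 11.5 and 16.3 CPM in the controls. HERC5, the ligase that attaches ISG15 to new proteins, had 10.5 and 41.7 CPM in the knockdown, against 8.15 and 11.9 CPM in the controls. Its knockdown library 1 lay inside the range of the controls, and the whole difference came from knockdown library 2. HERC6 had 12.4 and 19.6 CPM against 7.65 and 8.26 CPM, and USP18, the protease that removes ISG15 and also damps receptor signalling, had 11.8 and 13.01 CPM against 8.08 and 9.03 CPM.

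Enzymes that act on nucleotides and RNA, and the helicases, held some of the scarcest members, and 0 of these 8 genes passed with edgeR. An unadjusted p below 0.05 was found for 6, all higher, against 12.1% of all tested genes, and DESeq2 called 2 (RSAD2 and DDX60). RSAD2, or viperin, makes a nucleotide that terminates viral RNA chains. It had 1.09 and 7.16 CPM in the knockdown and 0.715 and 0.832 CPM in the controls, and its knockdown library 1, at 22 counts, stood close to the 20 and 14 counts of the controls. CMPK2, a mitochondrial nucleotide kinase encoded next to RSAD2, had 0.888 and 3.87 CPM against 0.822 and 0.356 CPM, the same order of libraries within the knockdown. The exons of RSAD2 and CMPK2 overlap on opposite strands, so reads from 1 may be counted for the other. ISG20, an exonuclease for single-stranded RNA, had 7.60 and 9.05 CPM against 2.00 and 6.18 CPM, with the wide gap between the controls. SAMHD1, which degrades deoxynucleotides, had 56.9 and 61.2 CPM against 46.2 and 42.8 CPM. The helicase DDX60, a cofactor of RNA sensing, had 17.1 and 25.1 CPM in the knockdown, against 13.2 and 8.38 CPM in the controls (log2 fold change 0.96 ± 0.31, edgeR adjusted p = 0.135). DHX58, which encodes LGP2, a modulator of RIG-I and MDA5, had 11.4 and 8.34 CPM against 5.11 and 6.30 CPM. HELZ2, a coactivator with helicase domains, had 39.8 and 40.0 CPM against 21.1 and 40.8 CPM, so that control library 2 stood with the knockdown.

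The PARP proteins and DTX3L showed small differences with tight replicates. PARP9 and its partner ligase DTX3L form a complex that acts on histones and viral proteins, and PARP12 and PARP14 are mono-ADP-ribosyltransferases. All 4 had both knockdown libraries above both controls, against 27.1% of all tested genes. All 4 were also higher at an unadjusted p below 0.05, against 12.1% of all tested genes. With edgeR 0 of the 4 passed over all genes, while DESeq2 called 1 (PARP9). PARP9 had 54.4 and 51.7 CPM in the knockdown, against 28.1 and 27.0 CPM in the controls. With a log2 fold change of 0.94 ± 0.17 it had the smallest p among the members that missed the threshold (edgeR adjusted p = 0.0534), and it passed with RLE scaling and after the GC correction. DTX3L had 36.5 and 40.2 CPM against 22.8 and 25.2 CPM, a log2 fold change of 0.68 ± 0.19. PARP12 and PARP14 had log2 fold changes of 0.43 ± 0.18 and 0.41 ± 0.16. PARP9 and DTX3L share exon positions on opposite strands, which makes their counts uncertain.

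The IFI proteins are a mixed set named for their induction, and they spanned the widest range of log2 fold changes, from 0.09 to 3.97. Of the 6 genes 1 rose in the edgeR test (IFI6) and 5 did not pass, of which DESeq2 also called IFI44 and IFI44L. IFI6, a membrane protein that protects the endoplasmic reticulum from viral remodelling, had 28.9 and 42.2 CPM in the knockdown, against 13.1 and 11.2 CPM in the controls (log2 fold change 1.55 ± 0.25, SE). After the GC correction IFI6 no longer passed (edgeR adjusted p = 0.0525). IFI44L, an antiviral protein of unclear mechanism, had 2.86 and 12.4 CPM in the knockdown, against 0.536 and 0.416 CPM in the controls, where it rested on 15 and 7 counts. Both knockdown libraries were above both controls, yet they differed 4.34-fold from each other, and the log2 fold change of 3.97 ± 0.75 did not pass (edgeR adjusted p = 0.0552). IFI44 had 14.3 and 33.1 CPM against 7.47 and 10.7 CPM, and IFI27, a mitochondrial protein, had 1.97 and 4.13 CPM against 0.608 and 1.43 CPM. IFI16, a nuclear DNA sensor, and IFI35 overlapped between the groups. IFI16 had 103 and 133 CPM in the knockdown and 98.4 and 124 CPM in the controls, and IFI35 had 18.4 and 18.7 CPM against 14.5 and 19.1 CPM.

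The remaining effectors had log2 fold changes from 0.09 to 1.48, and 0 of the 6 passed with edgeR, while DESeq2 called 1 (EPSTI1). Of the 6, 3 were higher at an unadjusted p below 0.05, against 12.1% of all tested genes. XAF1, an antagonist of the apoptosis inhibitor XIAP, had 4.84 and 2.91 CPM in the knockdown, against 1.18 and 1.60 CPM in the controls (log2 fold change 1.48 ± 0.45). EPSTI1, first described as a gene induced in breast cancer epithelium by stroma, had 10.4 and 13.7 CPM against 4.18 and 7.01 CPM. LGALS3BP, a secreted glycoprotein that binds galectins, was the most abundant member, at 962 and 665 CPM in the knockdown and 581 and 532 CPM in the controls. PLSCR1, a scramblase-like protein that also acts in the nucleus, had 35.3 and 40.8 CPM against 35.04 and 30.3 CPM. SAMD9 and SAMD9L, a pair of poxvirus restriction factors, overlapped between the groups. SAMD9 had 17.5 and 8.76 CPM in the knockdown and 15.3 and 9.27 CPM in the controls, so that its replicates differed more than its groups.

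The 2 knockdown libraries did not carry the same profile of these genes. In 33 of the 49 members knockdown library 2 was the higher one, against 49.6% of all tested genes. Control library 2 was likewise the higher control in 29 of the 49, against 46.5% of all tested genes. In 8 members knockdown library 2 was over 2-fold higher on the scale of log2(CPM + 0.5), against 1.71% of all tested genes. The 8 were RSAD2, HERC5, IFI44L, CMPK2, OASL, IFI44, MX2 and OAS2, named here after their values were seen. As plain ratios of CPM, RSAD2 was 6.59-fold, CMPK2 4.36-fold, IFI44L 4.34-fold and HERC5 3.99-fold higher in library 2 than in library 1, and IFI27, at 2.09-fold, passed 2-fold on this scale only. Another 2 members, GBP2 and UBA7, were over 2-fold higher in knockdown library 1, against 2.96% of all tested genes. The controls were over 2-fold apart in 2 members, against 3.68% of all tested genes, so both of these counts lay near the background. The median size of the log2 ratio between the libraries of a group was 0.44 in the knockdown and 0.24 in the controls, against 0.26 and 0.23 over all tested genes. Relative to the mean of the controls, on the same scale, the median over the members was 0.61 in knockdown library 1 and 0.75 in knockdown library 2, so that the members as a group stood higher in both libraries while single genes differed. The 4 genes past the threshold were among the members whose knockdown libraries lay within 1.5-fold of each other in CPM, at 1.10-fold for OAS1, 1.33-fold for IFIT1, 1.39-fold for MX1 and 1.46-fold for IFI6. A small spread between replicates is part of what lets a gene pass, so this trait does not set the 4 apart. Members that did not pass, such as PARP9 (0.949-fold) and IFIT5 (0.953-fold), also lay within 1.5-fold.

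**Figure D2:**
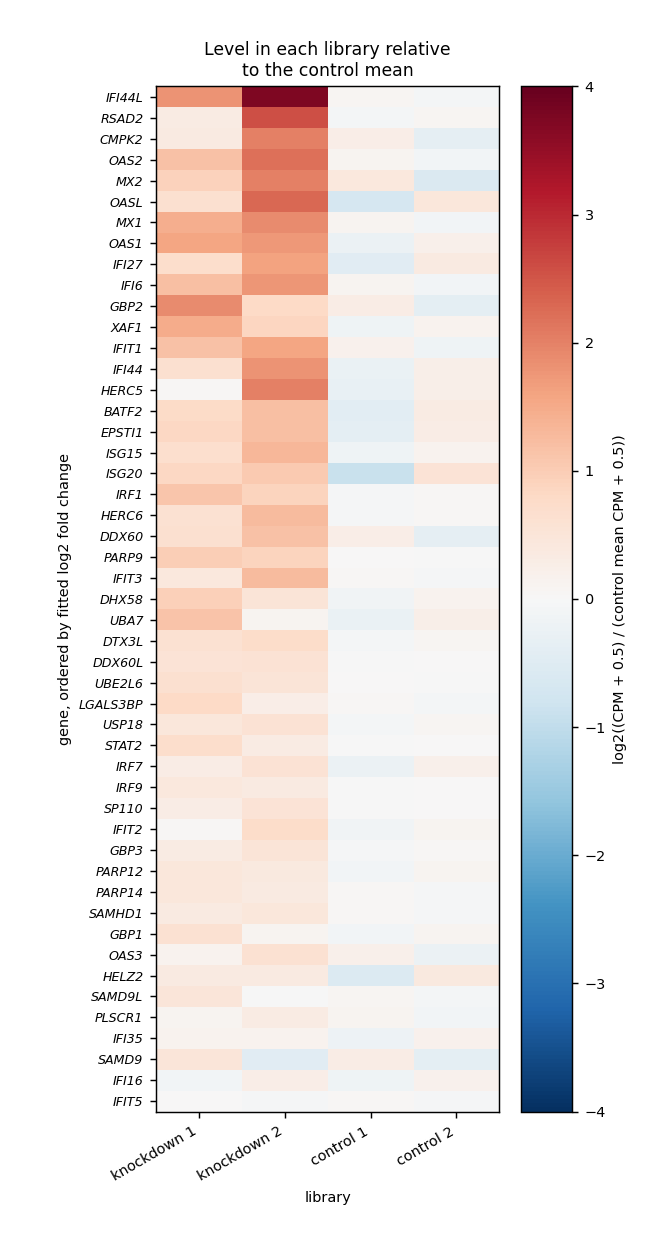
Level of each of the 49 genes in each library relative to the control mean, on the scale of log2((CPM + 0.5) / (control mean CPM + 0.5)), with genes in the order of the fitted log2 fold change. Both knockdown columns are mostly red, and IFI44L, RSAD2, CMPK2, OASL and HERC5 are darker in knockdown library 2, whereas GBP2 is darker in knockdown library 1.

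**Figure D3:**
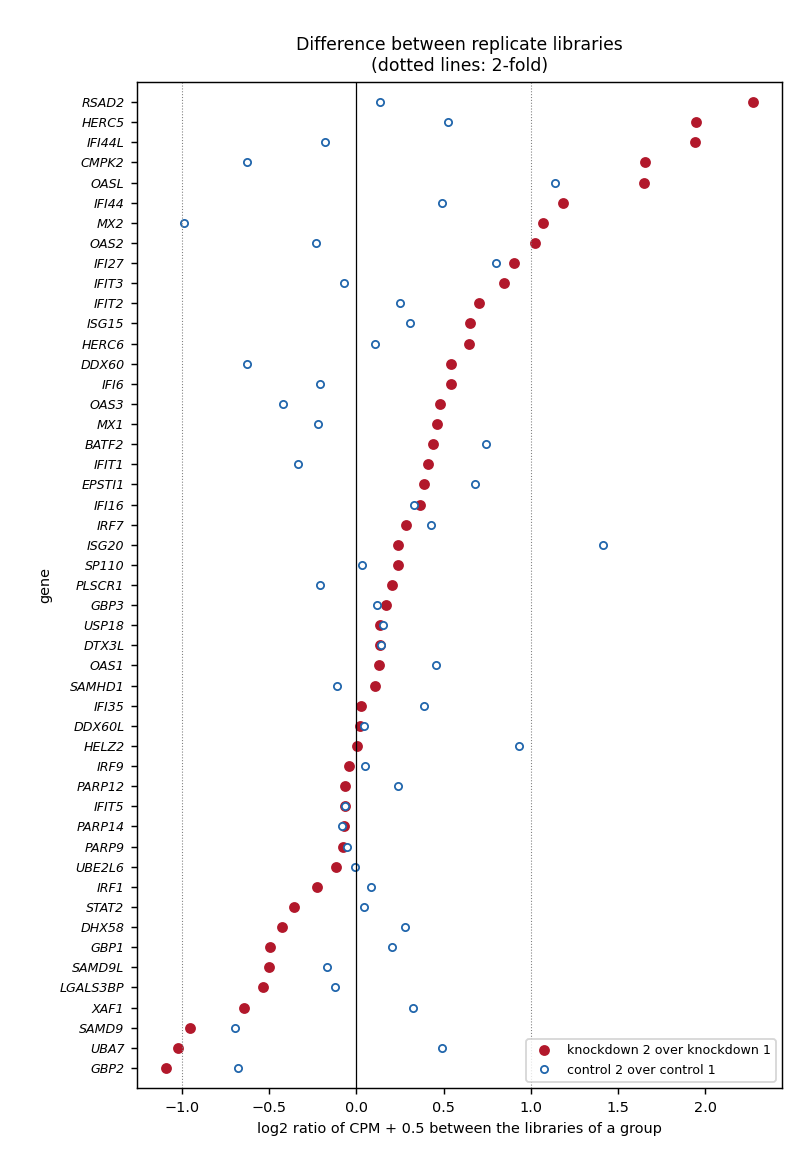
Log2 ratio of CPM + 0.5 between the libraries of a group, knockdown 2 over knockdown 1 (filled) and control 2 over control 1 (open), for each of the 49 genes. The 8 genes right of the upper dotted line, from RSAD2 down to OAS2, were over 2-fold higher in knockdown library 2, and UBA7 and GBP2 lie left of the lower line.

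Neighbouring members could have unlike values, about as often as other neighbouring genes. In GRCh38 (GENCODE v29), 25 members fall into 10 groups of genes less than 250 kb apart, which make 21 pairs. The ratio of the 2 genes within a library was separated between the groups in 12 of these pairs and overlapped in 9, and it was separated in 56.4% of all pairs of tested genes at most 250 kb apart, so the share among the members lay near the background. The OAS genes lie in the order OAS1, OAS3 and OAS2 within 105 kb on chromosome 12 (112906777 to 113011723, all on the plus strand). The middle gene had the smallest log2 fold change of the 3. The ratio of OAS1 to OAS3 within a library, which no scaling between libraries can change, was 0.450 and 0.353 in the knockdown and 0.115 and 0.215 in the controls. The ratio of OAS3 to OAS2 was 3.30 and 2.24 in the knockdown and 7.47 and 6.58 in the controls. Both ratios were separated between the groups, and no test of the ratios was run. With 2 libraries each an exact two-sided permutation test cannot go below p = 0.333. The IFIT genes lie within 137 kb on chromosome 10 (89283694 to 89421001), and the ratio of IFIT1 to its neighbour IFIT5 was 2.03 and 2.84 in the knockdown and 1.00 and 0.825 in the controls. In the group of PARP9, DTX3L and PARP14 on chromosome 3, the ratio of PARP9 to PARP14 was 0.480 and 0.478 in the knockdown and 0.327 and 0.333 in the controls. By contrast the ratio of MX2 to MX1, side by side on chromosome 21, overlapped at 0.165 and 0.270 in the knockdown and 0.282 and 0.128 in the controls, and so did that of HERC6 to HERC5 at 1.18 and 0.470 against 0.939 and 0.692.

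**Figure D4:**
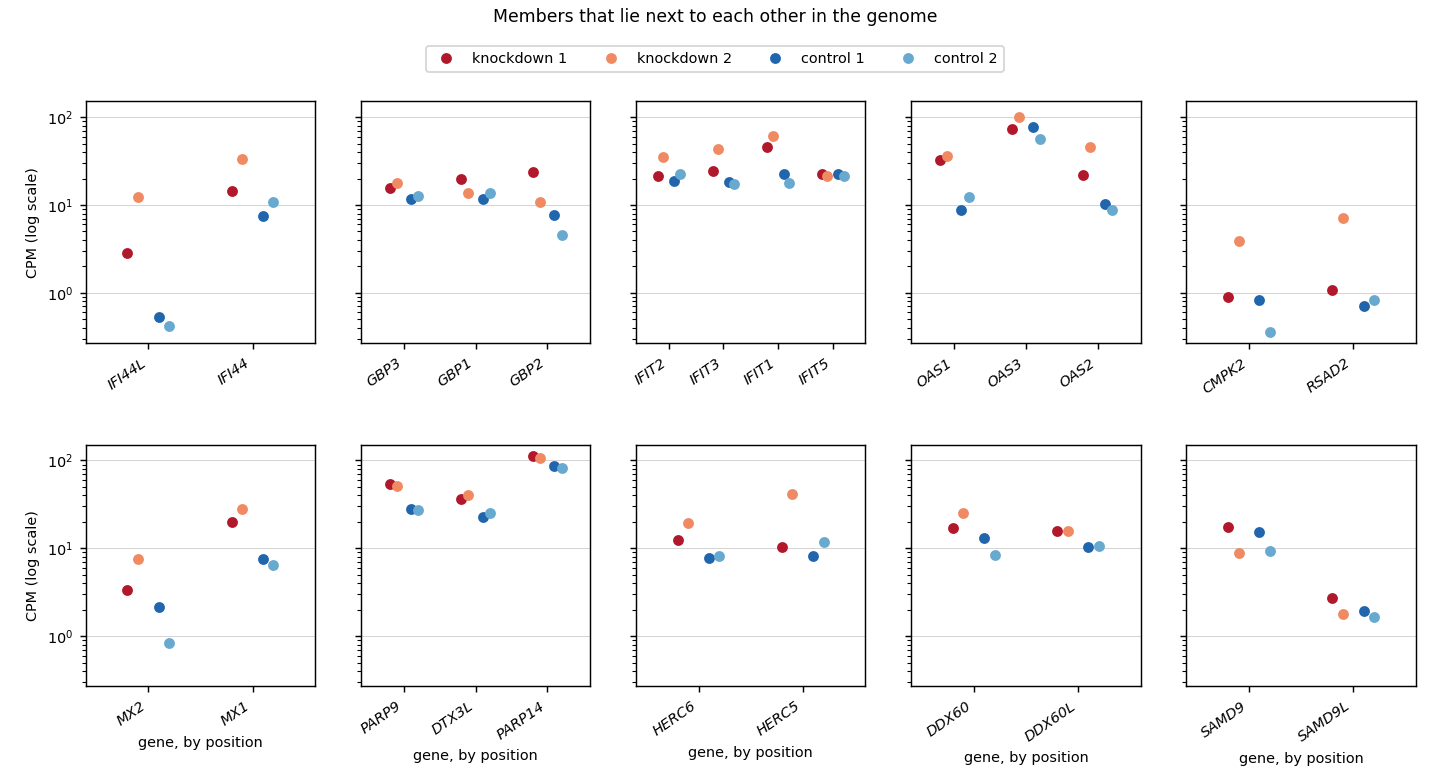
CPM on a log scale in each library (knockdown left, control right of each gene) for the 10 groups of members that lie within 250 kb of each other, in the order of their position. OAS3 overlaps between the groups while OAS1 and OAS2 on either side do not, and IFIT5 is level next to IFIT1.

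Per exon length the mean levels of the members ran from 0.264 to 191 CPM per kb, and, on CPM, the scarcer genes had the larger fitted differences. LGALS3BP had the highest level, at 269 and 185 CPM per kb in the knockdown and 162 and 148 CPM per kb in the controls, and stood clear of ISG15, at 71.2 and 112 against 39.3 and 48.8 CPM per kb. UBE2L6 and IFI6 came next, with mean levels of 41.9 and 27.6 CPM per kb over the 4 libraries, and the spread of the 4 libraries of each overlapped that of the other. The lowest mean level was that of MX2, with 0.253 and 0.575 CPM per kb in the knockdown and 0.164 and 0.0637 CPM per kb in the controls. Split by the mean CPM over all 4 libraries, the 12 members under 10 CPM had a median log2 fold change of 1.35, the 23 members from 10 to 30 CPM of 0.92, and the 14 members at 30 CPM and above of 0.48. Over all tested genes in the same ranges the medians were 0.20, -0.02 and -0.08. The median standard error of the members was 0.48, 0.26 and 0.19 in these ranges, and 0, 3 and 1 of their members passed.

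**Figure D5:**
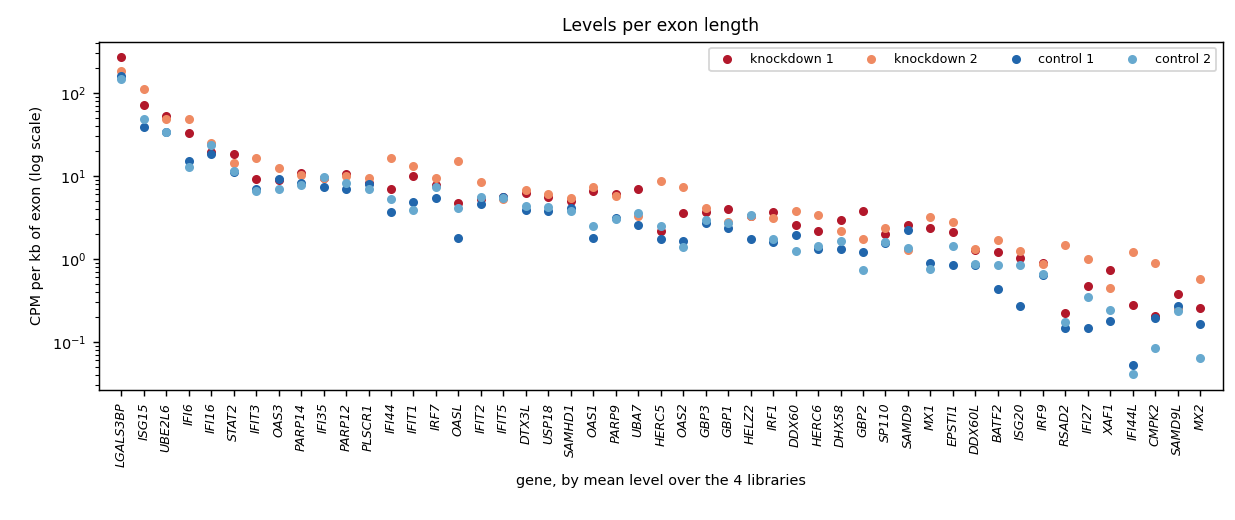
CPM per kb of merged exon length on a log scale for the 49 genes in each library, ordered by the mean level over the 4 libraries. LGALS3BP has the highest mean and MX2 the lowest, and the knockdown points lie above the control points for most genes.

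Genes linked to the pathway but outside the 49 gave no call with edgeR. Of 12 targets of interferon gamma 5 were tested and 0 passed with edgeR, while DESeq2 called 1. Among the 5, 2 were higher at an unadjusted p below 0.05, against 12.1% of all tested genes. ICAM1, an adhesion molecule that NF-kB also drives, had 25.1 and 26.7 CPM in the knockdown, against 7.12 and 14.1 CPM in the controls (log2 fold change 1.30 ± 0.33), and TAP1, the peptide transporter, had 140 and 186 CPM against 90.8 and 125 CPM. The chemokines CXCL9, CXCL10 and CXCL11, which mark a strong interferon gamma response, had at most 3 counts in any library. Among 13 tested sensors and adaptors of 14 listed, 0 passed with edgeR. At an unadjusted p below 0.05, 2 were higher, a share near the 12.1% of all tested genes, and DESeq2 called 2. These were IFIH1 and RIGI, which encode the RNA sensors MDA5 and RIG-I. IFIH1 had 28.1 and 37.2 CPM in the knockdown, against 15.5 and 16.8 CPM in the controls, and RIGI had 30.3 and 64.4 CPM against 18.9 and 21.4 CPM. Both groups of sensor values were separated, with log2 fold changes of 1.02 ± 0.22 and 1.23 ± 0.34.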

How the data were processed

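The values the authors deposited are raw counts, whole numbers for each Ensembl gene in each library. Per the submitters' processing notes, HISAT2, edgeR and GRCh38 were used. The versions, the program that counted reads, its annotation and its strand setting were not given in the sources used here. Columns were matched to samples by their descriptions, and groups come from the titles. From the deposited counts, edgeR 4.0.16 (R 4.3.3) was run with TMM scaling, filterByExpr (minimum count 10; CELF2 kept) and its quasi-likelihood test on 15171 genes, with Benjamini-Hochberg adjustment over all of them at 0.05. CPM values are TMM-scaled. Standard errors are the log2 fold change divided by the root of the F statistic. Alternatives used DESeq2 1.42.0 and limma 3.58.1. DESeq2 and the fit with no filter on low counts covered 25916 genes, and the GC correction 15099. Fits with a library left out covered 15756 to 16195 genes, and the other alternatives the same 15171. On simulated counts for 14930 genes the test recovered 97.8% of 4-fold and 21.5% of 2-fold changes. The changed genes were drawn only from genes above a set mean CPM, and all genes shared a single dispersion (coefficient of variation 21.6%). Members that are scarcer or more scattered are unlike these genes, so the rates do not apply to them. The replicates of a group differed by 34.5 (knockdown) and 38.2 (control) chi-square units per degree of freedom, so they are distinct libraries. Positions and exon overlaps came from GENCODE v29; 16 members share exon positions with another gene (IFIT2, OAS1, MX1, GBP2, GBP3, ISG15, UBA7, RSAD2, CMPK2, SAMHD1, PARP9, DTX3L, IRF1, IRF9, SP110 and XAF1), and their counts are uncertain. Close relatives such as DDX60 and DDX60L, SAMD9 and SAMD9L, or GBP1 and GBP3 may share reads. Promoter windows came from RefSeq (GRCh38.p14), and IFIT2, OAS2, OASL, MX2, GBP2, UBA7, USP18, DHX58 and IRF7 were not searched. 1 gene of the receptor and JAK-STAT list is not reported here by name. The members, lists and tests were chosen with earlier results of these data known. Values in every library were planned for members past the threshold and, in each of the 10 role groups, for the 2 smallest p and the largest; other members are given more briefly, and from each other pathway list the 2 smallest p, with further genes such as IFNL1, IFNB1 and the CXCL chemokines named after their values were seen.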

Additional observations from a re-analysis of the deposited data

How the results depend on the processing

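Over 10 alternatives the 30 named members gave 300 values, of which 232 kept their direction and side of the threshold, 43 newly passed, 14 no longer passed and 11 turned sign. Of the interferon-stimulated effector genes 17 passed with DESeq2, 26 with no filter on low counts, 0 with limma-voom and 19 with the replicate block, against 4 as reported, and leaving out each library in turn gave 0 to 13. Over all tested genes 133 passed (69.2% higher); 1354 passed with DESeq2 (56.3% higher), 211 with RLE scaling, 2139 with no filter, 0 with limma-voom and 1579 with the replicate block, and leaving out each library gave 0 to 616, 0 without control library 1 and 7 without knockdown library 2. The labels do not say that a number marks a shared culture or day, so the block is given only here. The same-numbered libraries deviated from their group means with a correlation of 0.20 over genes. Whether they are paired was not tested. The median of the members was 0.61 to 0.93 with each library left out. Receptor and JAK-STAT genes passed 2 with no filter, 1 with the replicate block and 0 to 1 with a library left out. Interferon gamma targets passed 1 with DESeq2, 2 with no filter, 1 with the replicate block and 0 to 1 with a library left out. Sensors passed 2 with DESeq2, 2 with no filter, 2 with the replicate block and 0 to 2 with a library left out. IFIT5, at -0.01, turned to 0.0019 with RLE scaling, 0.010 with no filter, 0.21 after the GC correction, 0.021 without control library 1 and 0.024 without knockdown library 2, with a range of -0.031 to 0.024 over the libraries left out. IFI16 turned to -0.080 without control library 1 and -0.11 without knockdown library 2 (range to 0.28), HELZ2 to -0.038 without control library 1, and SAMD9 to -0.014 with limma-voom, -0.21 without control library 2 and -0.48 without knockdown library 1 (range to 0.50). These 4 genes had no call in any of these fits. The cause was not tested. With 2 libraries per group, depth and replicate number limit what can be seen: 2-fold changes were mostly missed in simulated counts.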
